A study of Homo sapiens with 647 samples.

Results

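FGFR1, FGFR2 and FGF3 are the 3 genes of the fibroblast growth factor (FGF) system that were introduced by lentivirus into T47D cells in this study, and they were taken by name as 3 of the 54592 genes of the count table. T47D is an established breast cancer cell line that expresses the estrogen receptor. RNA sequencing by SMART-Seq2, which reads full-length cDNA, covered 647 libraries from the parental line and from lines made with the vector pLX307 carrying GFP, FGFR1, wild-type FGFR2 (FGFR2_WT), FGFR2_M538I, FGFR2_N550K, FGFR2_K660N or FGF3. Of these, 487 libraries came from lines that carried FGFR1, a form of FGFR2 or FGF3, and 160 came from the parental and GFP lines, called control lines here. The labels state neither the promoter in the vector nor whether a line was grown from 1 clone.

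Cells were plated for 48 h and then treated for 24 h. The agents were fulvestrant (Fulv, 100 nM), which degrades the estrogen receptor, palbociclib (Palbo, 1 µM), an inhibitor of cell cycle kinases, FIIN-3 (100 nM), a covalent inhibitor of FGF receptors, trametinib (Tram, 500 nM), an inhibitor of MEK, and the growth factor FGF2, whose dose is not given. The numbers in the sample titles run through a first set (set 1, 64 line by treatment groups and 58.1% of the libraries) and start again in a second (set 2, 48 groups and 41.9% of the libraries), and the sets were kept apart. In set 1 the lines other than FGF3 received DMSO (the vehicle), FGF2, FIIN-3+FGF2, Fulv, Fulv+FGF2, Fulv+FGF2+FIIN-3, Fulv+FGF2+Tram and Fulv+Palbo+FGF2, and FGFR2_N550K also received FIIN-3 and Fulv+FIIN-3. In set 2 they received FIIN-3, Palbo, Palbo+FGF2, Palbo+FGF2+FIIN-3, Fulv+Palbo+FGF2+FIIN-3 and Fulv+Palbo+FGF2+Tram. The FGF3 line received no FGF2: its groups were DMSO, FIIN-3, Fulv, Fulv+FIIN-3, Fulv+Palbo and Fulv+Tram in set 1, and untreated control, FIIN-3, Palbo, Palbo+FIIN-3, Fulv+Palbo+FIIN3 and Fulv+Palbo+Tram in set 2. Over both sets 91 groups had 6 libraries, 17 had 5 and 4 had 4. Nothing in the labels says that libraries of a group were separate cultures, so p-values measure the spread between these libraries, which may be technical.

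FGF receptors are tyrosine kinases of the cell surface. A ligand bound together with heparan sulfate pairs 2 receptors, the kinases phosphorylate each other and the adaptor FRS2, and the signal passes through RAS, MEK and ERK to ETS transcription factors, while the same signal induces its own inhibitors, the DUSP phosphatases and the Sprouty and SPRED proteins. FGFR1 is amplified in a share of estrogen receptor positive breast cancers, FGFR2 lies at a breast cancer risk locus, and FGF3 is a secreted ligand, silent in most adult tissues, whose gene sits beside CCND1 in a segment that is often amplified in breast cancer. N550K and K660N are known as activating substitutions of the FGFR2 kinase domain, and N550K is also known to lower sensitivity to several FGFR inhibitors.

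The 3 FGFR2 substitutions fall in the intracellular kinase domain, and the reference bases around their codons are shown because they are the designed differences between the FGFR2 lines. The methionine of M538I, the asparagine of N550K and the lysine of K660N were found together at their numbered positions in 3 of 20 coding FGFR2 transcripts of GENCODE v29 (build GRCh38). In ENST00000457416.6, a transcript of 822 codons and 18 exons on the minus strand of chromosome 10, the codons of M538I and N550K lie in exon 12, 12 codons apart, and that of K660N lies in exon 14, 110 codons further on. Each line gives the coding strand 5′ to 3′ with 21 bases on either side of the codon, and capitals mark the reference codon that the substitution changes:
M538I codon: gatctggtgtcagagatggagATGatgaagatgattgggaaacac
N550K codon: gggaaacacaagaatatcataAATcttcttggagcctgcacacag
K660N codon: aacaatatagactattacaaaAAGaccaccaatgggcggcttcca
The codon of M538I occupies chr10:121498556-121498558, that of N550K chr10:121498520-121498522 and that of K660N chr10:121488000-121488002. The first and second windows share bases, since the end of one is the start of the other, and the K660N window crosses an exon junction. Which base changes the vectors carry is not stated in the labels.

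The counts were made on hg19, so the GRCh38 positions place the genes but were not used to count. In the same annotation FGFR1 (ENSG00000077782.20) spans positions 38400215 to 38468834 of chromosome 8, FGFR2 (ENSG00000066468.22) positions 121478334 to 121598458 of chromosome 10, and FGF3 (ENSG00000186895.3) positions 69809969 to 69819024 of chromosome 11, all on the minus strand. The count table has 1 row per gene, so in a line carrying FGFR1 or FGFR2 the reads of the introduced copy and of the cell's own gene cannot be told apart, nor can the substitutions be read. In these bulk libraries fewer cells with an introduced gene and less RNA per cell cannot be told apart either.

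Total counts ran from 512961 to 13012180 per library in set 1 (median 7570100) and from 619509 to 4804935 in set 2 (median 2887200). In set 1 the FGF3 line was shallower, with a median of 3403800 (lowest 603534) against 8469400 in GFP (lowest 5254346). In set 2 the medians of these lines were 2634200 and 3003000. Levels are given as log2(CPM + 1), with CPM the counts of a gene for each 1000000 counts of the library. In 16 libraries the mitochondrial ribosomal gene MT-RNR2 held under 5% of the counts, against medians of 18.03% in set 1 and 18.92% in set 2. These libraries stood apart. In set 1 there were 14 of them, all within range 3 of the 4 ranges of 96 title numbers, and in set 2 there were 2, FGF3 control replicate 3 and parental Palbo replicate 4. No pair of replicates held the same counts. All 12 luminal markers fixed for T47D were read in every library except TFF1, which was read in 497 libraries. Basal markers (KRT5, KRT14 and TP63) had a median summed level of 14.2 CPM in the FGF3 line and 0.245 to 0.988 CPM in the other lines, and their part in the FGF3 line's differences was not tested. Summed fibroblast markers had line medians of 18.6 to 32.2 CPM, most of it COL1A1, summed blood markers 1.63 to 2.64 CPM, and endothelial markers a median of 0 in every line.

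Each introduced gene stood far above its level in the other lines. FGFR1, a receptor for several FGFs, had a median of 798 CPM in the FGFR1 line in set 1 (lowest library 32.4) and 1311 CPM in set 2 (lowest 330), against 7.83 and 8.12 CPM in the GFP line. In set 1 the 5 DMSO libraries of the FGFR1 line stood at 9.40, 9.80, 5.06, 8.60 and 8.53 on the log2(CPM + 1) scale, and the 6 GFP DMSO libraries ran from 1.76 to 3.37 with a median of 2.997. The groups did not overlap, and the single low carrier library was a stand-apart one. Averaged over the 8 treatments that both lines shared, FGFR1 was higher than in GFP by 6.51 ± 0.11 (log2 fold change ± SE; edgeR, adjusted p = 7.54e-168) in set 1, a comparison in which 9.29% of all genes passed with higher values. Over the 6 shared treatments of set 2 it was higher by 7.41 ± 0.12 (adjusted p = 3.08e-145), where 19.9% of genes passed. Within single treatments the pooled CPM was 71.03 to 216.5 times that of GFP in set 1 and 115.8 to 290.5 times in set 2. Within the ranges of 96 title numbers, and without the stand-apart libraries, the FGFR1 line exceeded GFP by 5.85 to 6.94 in set 1 and by 6.89 to 7.37 in set 2.

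**Figure D1:**
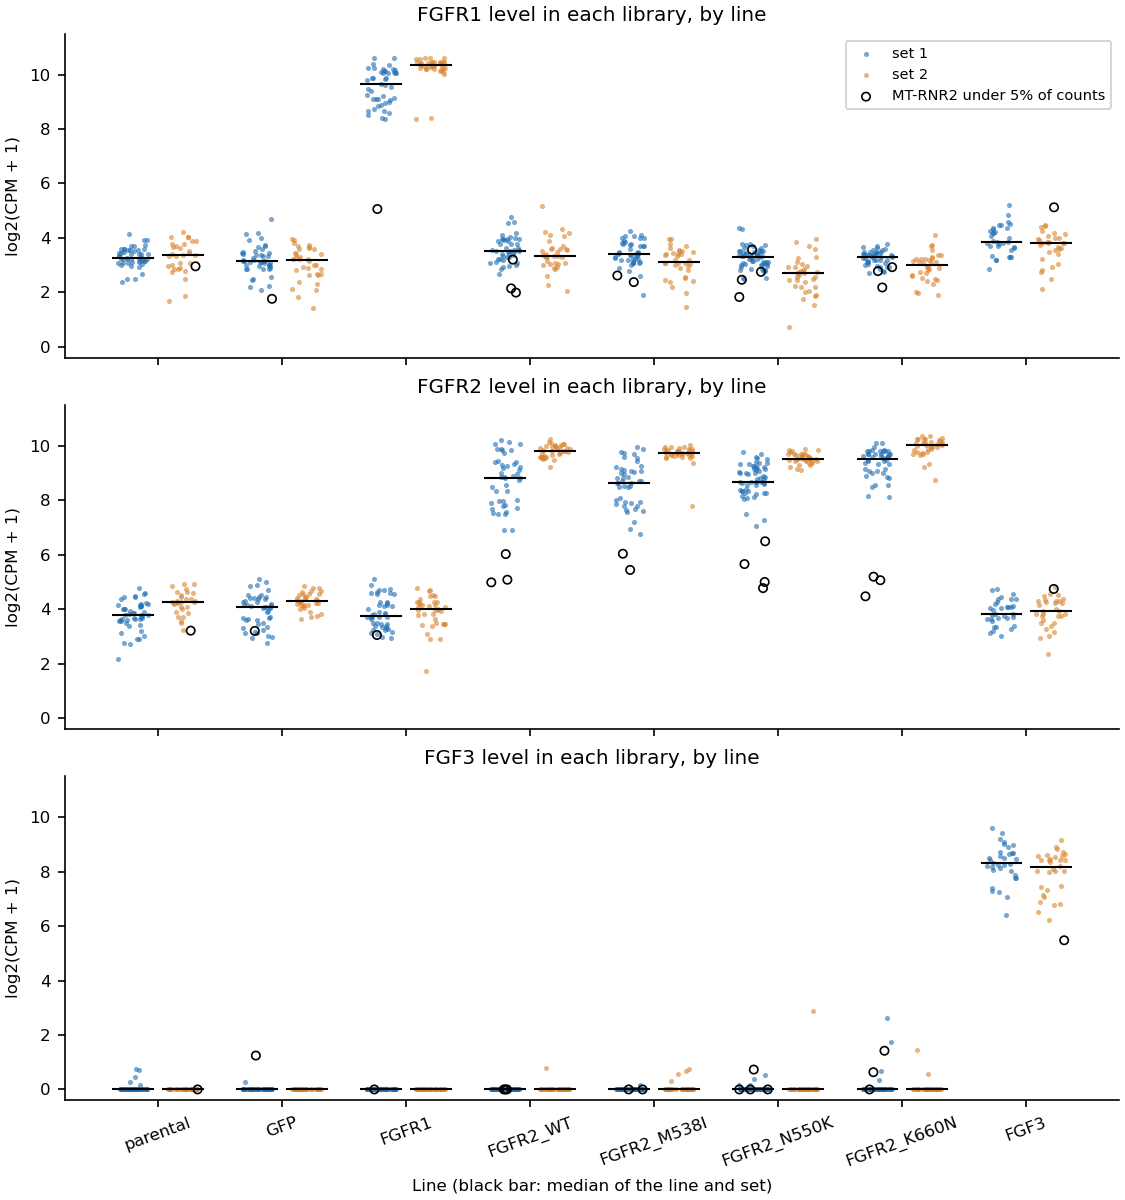
Level of FGFR1, FGFR2 and FGF3 in every library as log2(CPM + 1), by line and set, with a bar at the median and open circles for stand-apart libraries. Each introduced gene sits high in its own line, FGFR1 at 9.46 ± 0.92 (SD, n = 46) in the FGFR1 line in set 1, and the libraries that fall toward the other lines are stand-apart libraries.

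FGFR2 is a receptor for several FGFs, of which its epithelial form binds FGF3. Median FGFR2 in set 1 was 457 CPM in FGFR2_WT, 400 in FGFR2_M538I, 412 in FGFR2_N550K and 731 in FGFR2_K660N, against 15.7 CPM in GFP. In set 2 the medians were 908, 859, 741 and 1048 CPM in that order, against 18.9 CPM in GFP. Each FGFR2 line was above GFP in both sets. In set 1 the log2 fold changes were 4.81 ± 0.16 for FGFR2_WT (adjusted p = 1.84e-89; 33.4% of genes passed), 4.67 ± 0.16 for FGFR2_M538I (4.13e-87; 36.2%), 4.49 ± 0.16 for FGFR2_N550K (2.76e-85; 38.5%) and 5.30 ± 0.17 for FGFR2_K660N (7.22e-97; 31.5%). The set 2 values were 5.58 ± 0.09 (2.24e-150; 16.4%), 5.49 ± 0.09 (6.09e-149; 24.8%), 5.30 ± 0.09 (2.92e-146; 34.4%) and 5.76 ± 0.09 (1.32e-152; 25.7%). These comparisons share the GFP libraries. Within a single treatment the pooled FGFR2 CPM of a carrier was between 13.6 and 64.3 times that of GFP in set 1 and between 34.5 and 67.6 times in set 2.

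Carrier and control libraries separated fully once the stand-apart libraries were set aside. The highest level of FGFR2 in any line without an FGFR2 vector was 5.13 in set 1, and 2 libraries each of FGFR2_WT, FGFR2_N550K and FGFR2_K660N lay at or under it, as 1 library of the FGFR1 line lay under the highest FGFR1 of other lines, 5.23. All of these were stand-apart libraries. Without them the lowest carrier level was 6.89 in FGFR2_WT, 6.75 in FGFR2_M538I, 7.05 in FGFR2_N550K, 8.12 in FGFR2_K660N and 8.36 for FGFR1 in its line. In set 2 no carrier library lay at or under the highest non-carrier, 5.18 for FGFR1 and 4.93 for FGFR2.

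FGF3 gave the sharpest contrast because the other lines had almost no reads of it. In the FGF3 line it was read in all 33 libraries of set 1 (median 318.7 CPM, lowest 84.5) and all 32 of set 2 (median 285.2 CPM, lowest 43.6). The 5 DMSO libraries of set 1 stood at 6.42, 7.41, 7.07, 7.76 and 8.70, and the 4 Fulv libraries at 8.27, 8.17, 8.03 and 9.61. Over DMSO and Fulv, the treatments shared with GFP in set 1, pooled FGF3 was 333.6 CPM in the FGF3 line and 0.0772 CPM in GFP, where its 8 reads came from 1 stand-apart library, a ratio of 4320 (95% exact interval 2193 to 10007, for counting error only). Over Palbo and FIIN-3 in set 2 it was 360 CPM against no read in 12 GFP libraries, 4205-fold higher when 3 reads over the group are set as the floor. The lower end of the 95% exact interval, for counting error only, was 3419.5-fold. The difference passed in both sets (edgeR, adjusted p = 1.02e-39 and 3.86e-34), where 35.1% and 15.7% of genes passed.

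Outside the FGF3 line, single libraries held most of the FGF3 reads. In set 1, 19 libraries (5.54%) had any read of FGF3, 110 reads in all, and 5 of the 19 had 1 read. The FGFR2_K660N line held 74 of these reads, 45 of them in 1 Fulv+FGF2 library (5.24 CPM) and 18 in 1 FGF2 library (2.32 CPM). In set 2, 8 libraries (3.35%) had 30 reads, 14 of them in 1 Fulv+Palbo+FGF2+Tram library of FGFR2_N550K (6.46 CPM). The FGFR1 line had no FGF3 read in either set. The upper end of its 95% exact interval, for counting error only, was 0.0101 CPM in set 1 and 0.0361 CPM in set 2. FGFR2_WT had no FGF3 read in set 1. GFP and parental cells had none in set 2. The highest non-carrier level, 2.64 in set 1 and 2.90 in set 2, lay under the lowest library of the FGF3 line in each set.

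Counts do not allow levels of different genes to be compared, because a longer transcript gives more reads, so the deposited length-normalized values (TPM, which divides by transcript length) were used for the DMSO libraries of set 1. On the log2(TPM + 1) scale FGF3 in its line stood at 8.67, and only 0.493% of the genes stood at or above it by mean TPM. FGFR2 stood at 7.36 in FGFR2_K660N (rank 692 by mean TPM), 5.51 in FGFR2_N550K (rank 1527), 5.34 in FGFR2_M538I (rank 1659) and 5.21 in FGFR2_WT (rank 1717), and FGFR1 stood at 6.22 in its line (rank 898). Without the stand-apart libraries the values were 7.08 for FGFR1 and 6.71, 6.497 and 6.10 for FGFR2 in FGFR2_N550K, FGFR2_M538I and FGFR2_WT. In GFP the cell's own FGFR1 was at 1.34 (rank 11368) and its FGFR2 at 2.15 (rank 8515). The gene models that set the lengths are not given in the sources used here.

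Among the FGFR2 lines FGFR2_K660N carried the most FGFR2 RNA in both sets, and FGFR2_N550K the least in set 2. Across all libraries of set 1 the levels were 9.12 ± 1.20 in FGFR2_K660N, 8.55 ± 1.01 in FGFR2_N550K, 8.53 ± 1.23 in FGFR2_WT and 8.47 ± 0.98 in FGFR2_M538I. In set 2 they were 9.95 ± 0.34, 9.54 ± 0.19, 9.81 ± 0.22 and 9.70 ± 0.37 in the same order. FGFR2_K660N exceeded FGFR2_N550K by 0.81 ± 0.14 in set 1 (edgeR, adjusted p = 4.41e-07) and by 0.47 ± 0.07 in set 2 (8.7e-09), where 21.3% and 11.2% of genes passed. FGFR2_K660N exceeded FGFR2_WT by 0.49 ± 0.14 in set 1 (adjusted p = 0.00266; 34.2% of genes passed) and by 0.18 ± 0.07 in set 2, short of the threshold (0.0506; 17.5%). FGFR2_N550K was lower than FGFR2_WT by 0.29 ± 0.07 in set 2 (-0.29, adjusted p = 0.000422; 15.9%) and at -0.33 ± 0.14 in set 1 it did not pass (0.0811; 17.6%). FGFR2_M538I did not differ past the threshold from FGFR2_WT, at -0.15 in set 1 (95% interval -0.41 to 0.12, adjusted p = 0.799) and -0.09 in set 2 (-0.22 to 0.04, 0.77), and this pair also had the fewest changed genes, 1.61% and 1.60%.

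Levels of the introduced genes also differed between ranges of title numbers. Without the stand-apart libraries FGFR1 in the FGFR1 line averaged 8.99, 9.81, 9.13 and 10.20 in ranges 1 to 4 of set 1, and FGFR2 in FGFR2_WT averaged 7.77, 9.27, 8.52 and 9.35. The cell's own FGFR2 in GFP took the same course as FGFR2_WT, at 3.33, 4.22, 3.78 and 4.41, while GFP FGFR1, at 3.14, 3.52, 2.86 and 3.27, did not follow the FGFR1 line. The carrier minus GFP difference within ranges was 4.42 to 5.05 for FGFR2_WT, 4.45 to 5.04 for FGFR2_M538I, 4.29 to 5.01 for FGFR2_N550K and 5.24 to 5.64 for FGFR2_K660N. In the stand-apart libraries the introduced gene averaged 5.06 in the FGFR1 line, 4.91 in FGFR2_K660N, 5.74 in FGFR2_M538I, 5.48 in FGFR2_N550K and 5.37 in FGFR2_WT, while the other libraries of range 3 averaged 9.13, 9.02, 8.21, 8.39 and 8.52 in these lines. A group's libraries lay in some ranges and not others (DMSO in 1 to 3, FGF2 in 1, 2 and 4), so the treatment differences of the introduced genes are given below also within the ranges that hold both arms, as log2(CPM + 1) without the stand-apart libraries and with no test.

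**Figure D2:**
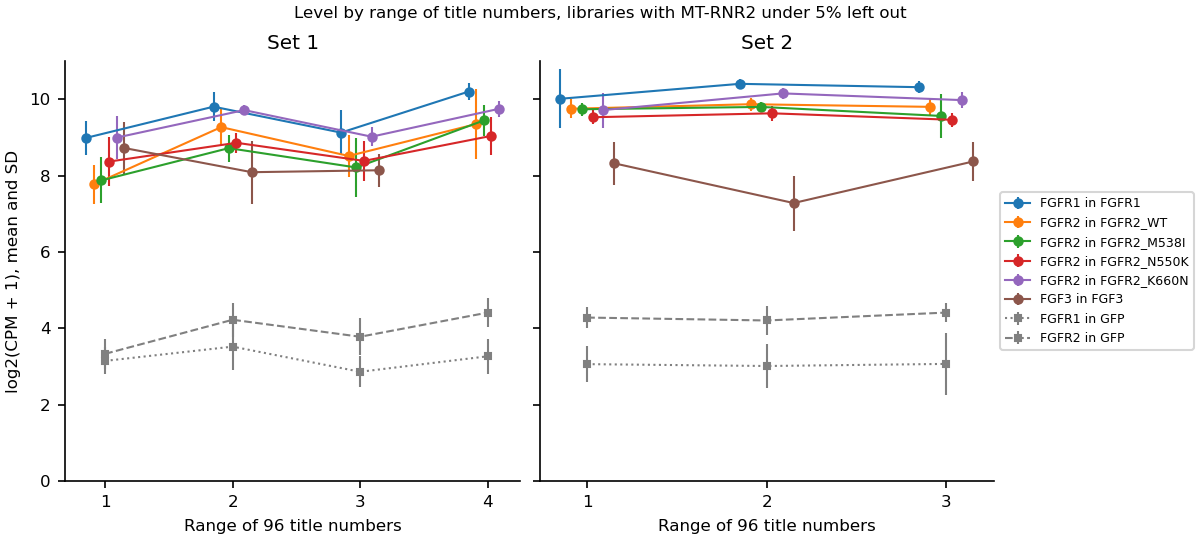
Mean level with its SD, as log2(CPM + 1), by range of 96 title numbers and set, for each introduced gene in its line and for FGFR1 and FGFR2 in GFP, without the stand-apart libraries. In set 1 FGFR1 averaged 8.99 in range 1 and 10.20 in range 4 of its line, and FGFR2 in GFP averaged 3.33 and 4.41.

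Across treatments FGFR1 in the FGFR1 line was lowest in DMSO in set 1 and lay in a narrow band in set 2. In rising order its means in set 1 were 8.28 ± 1.88 in DMSO (n = 5; 9.08 ± 0.62 without the stand-apart library), 9.14 ± 0.60 in Fulv, 9.31 ± 0.54 in Fulv+FGF2+FIIN-3, 9.51 ± 0.67 in FIIN-3+FGF2, 9.52 ± 0.71 in Fulv+FGF2, 9.63 ± 0.59 in Fulv+Palbo+FGF2 (n = 5), 10.06 ± 0.62 in FGF2 and 10.08 ± 0.27 in Fulv+FGF2+Tram (n = 6 where not given). Set 2 means were 9.96 ± 0.80 in FIIN-3, 10.02 ± 0.79 in Palbo+FGF2+FIIN-3, 10.32 ± 0.11 in Fulv+Palbo+FGF2+FIIN-3, 10.34 ± 0.12 in Palbo+FGF2, 10.42 ± 0.16 in Palbo and 10.44 ± 0.19 in Fulv+Palbo+FGF2+Tram. Every pair of neighbours in both orders differed by less than 1 SD of the more variable group.

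FGFR2 in FGFR2_WT was lowest in DMSO and highest with Tram in set 1, as FGFR1 was in its line. Its means in set 1 were 7.19 ± 1.54 in DMSO (8.02 ± 0.99 without 2 stand-apart libraries), 7.76 ± 1.44 in Fulv, 8.60 ± 0.43 in Fulv+FGF2+FIIN-3, 8.62 ± 0.92 in FIIN-3+FGF2 (n = 5), 8.71 ± 1.15 in Fulv+Palbo+FGF2, 8.79 ± 0.93 in Fulv+FGF2, 8.99 ± 1.08 in FGF2 and 9.61 ± 0.70 in Fulv+FGF2+Tram. In set 2 they ran from 9.61 ± 0.29 in FIIN-3 and 9.61 ± 0.08 in Palbo+FGF2+FIIN-3 through 9.79 ± 0.13 in Fulv+Palbo+FGF2+FIIN-3 (n = 5), 9.86 ± 0.08 in Palbo and 9.97 ± 0.22 in Fulv+Palbo+FGF2+Tram to 10.02 ± 0.07 in Palbo+FGF2. Neighbours overlapped within 1 SD in set 1, while in set 2 the 6 Palbo+FGF2 libraries (9.93 to 10.12) lay above 5 of the 6 Palbo libraries.

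FGFR2_M538I had its lowest mean in DMSO as well, but only with its stand-apart libraries. Its 5 DMSO libraries stood at 8.82, 8.54, 6.04, 5.44 and 7.78, of which the third and the fourth stood apart, a mean of 7.32 ± 1.51 with them and 8.38 without, which is above Fulv. The other means of set 1 were 8.20 ± 0.51 in Fulv, 8.43 ± 1.08 in Fulv+FGF2, 8.62 ± 0.72 in FIIN-3+FGF2, 8.66 ± 1.05 in Fulv+FGF2+Tram, 8.66 ± 1.11 in FGF2, 8.85 ± 0.51 in Fulv+FGF2+FIIN-3 and 8.88 ± 0.74 in Fulv+Palbo+FGF2. In set 2 they were 9.51 ± 0.85 in Palbo, 9.57 ± 0.11 in FIIN-3, 9.70 ± 0.06 in Palbo+FGF2 (n = 5), 9.72 ± 0.11 in Palbo+FGF2+FIIN-3, 9.80 ± 0.08 in Fulv+Palbo+FGF2+FIIN-3 (n = 5) and 9.89 ± 0.11 in Fulv+Palbo+FGF2+Tram, and the wide Palbo spread came from 1 library at 7.79.

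FGFR2_N550K, the only FGFR line given FIIN-3 without FGF2 in set 1, had its highest means there. FIIN-3 gave 9.37 ± 0.43 and Fulv+FIIN-3 gave 9.40 ± 0.18, above the other means of set 1, which rose from 7.44 ± 1.76 in DMSO (8.55 without 2 stand-apart libraries, above 3 of the other means taken without such libraries) through 8.24 ± 0.49 in Fulv+FGF2+FIIN-3, 8.30 ± 1.63 in Fulv (8.96 without 1), 8.32 ± 0.97 in Fulv+Palbo+FGF2 (8.69 without 1), 8.51 ± 0.79 in FGF2, 8.53 ± 0.65 in Fulv+FGF2 and 8.65 ± 0.48 in Fulv+FGF2+Tram to 8.72 ± 0.34 in FIIN-3+FGF2. All 12 libraries of FIIN-3 and Fulv+FIIN-3 lay in range 4, where the other lines were also high. No DMSO library lay there, so against DMSO treatment and range cannot be told apart. The line's 24 libraries of range 4, which include these 12 and otherwise only FGF2-treated ones, averaged 9.04 ± 0.50. A test of these groups against the line's FGF2 groups within range 4 was not made. In set 2 its means stayed between 9.43 ± 0.19 in Palbo and 9.63 ± 0.14 in Fulv+Palbo+FGF2+FIIN-3, with FIIN-3 at 9.44 ± 0.21, Palbo+FGF2 at 9.58 ± 0.19 (n = 5), Fulv+Palbo+FGF2+Tram at 9.59 ± 0.26 and Palbo+FGF2+FIIN-3 at 9.60 ± 0.13.

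FGFR2_K660N held its level in DMSO, where it had no stand-apart library. Its means in set 1 were 8.23 ± 1.93 in Fulv+FGF2+FIIN-3, 8.85 ± 1.89 in Fulv+Palbo+FGF2 and 9.001 ± 1.88 in Fulv+FGF2+Tram, which became 8.98, 9.60 and 9.76 without 1 stand-apart library each, and 9.15 ± 0.70 in FIIN-3+FGF2, 9.23 ± 0.33 in DMSO, 9.39 ± 0.36 in Fulv, 9.53 ± 0.13 in Fulv+FGF2 and 9.55 ± 0.57 in FGF2. Those of set 2 ran from 9.69 ± 0.48 in FIIN-3 through 9.81 ± 0.30 in Palbo+FGF2+FIIN-3 (n = 5), 9.98 ± 0.38 in Palbo+FGF2, 10.04 ± 0.21 in Palbo and 10.07 ± 0.25 in Fulv+Palbo+FGF2+FIIN-3 to 10.15 ± 0.24 in Fulv+Palbo+FGF2+Tram (n = 5).

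FGF3 in its line had its lowest means in the vehicle and untreated groups, with wide spreads between libraries. The untreated group was lowest only with its stand-apart library. In set 1 the means were 7.47 ± 0.85 in DMSO (n = 5), 8.05 ± 0.66 in Fulv+Palbo, 8.33 ± 0.53 in FIIN-3, 8.43 ± 0.23 in Fulv+FIIN-3, 8.52 ± 0.73 in Fulv (n = 4) and 8.95 ± 0.33 in Fulv+Tram. In set 2 they were 7.33 ± 1.13 in control (7.69 without the stand-apart library), 7.53 ± 0.69 in Fulv+Palbo+Tram (n = 4), 7.89 ± 1.10 in Fulv+Palbo+FIIN3, 7.95 ± 0.63 in Palbo+FIIN-3 (n = 5), 7.996 ± 0.85 in FIIN-3 (n = 5) and 8.58 ± 0.38 in Palbo.

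**Figure D3:**
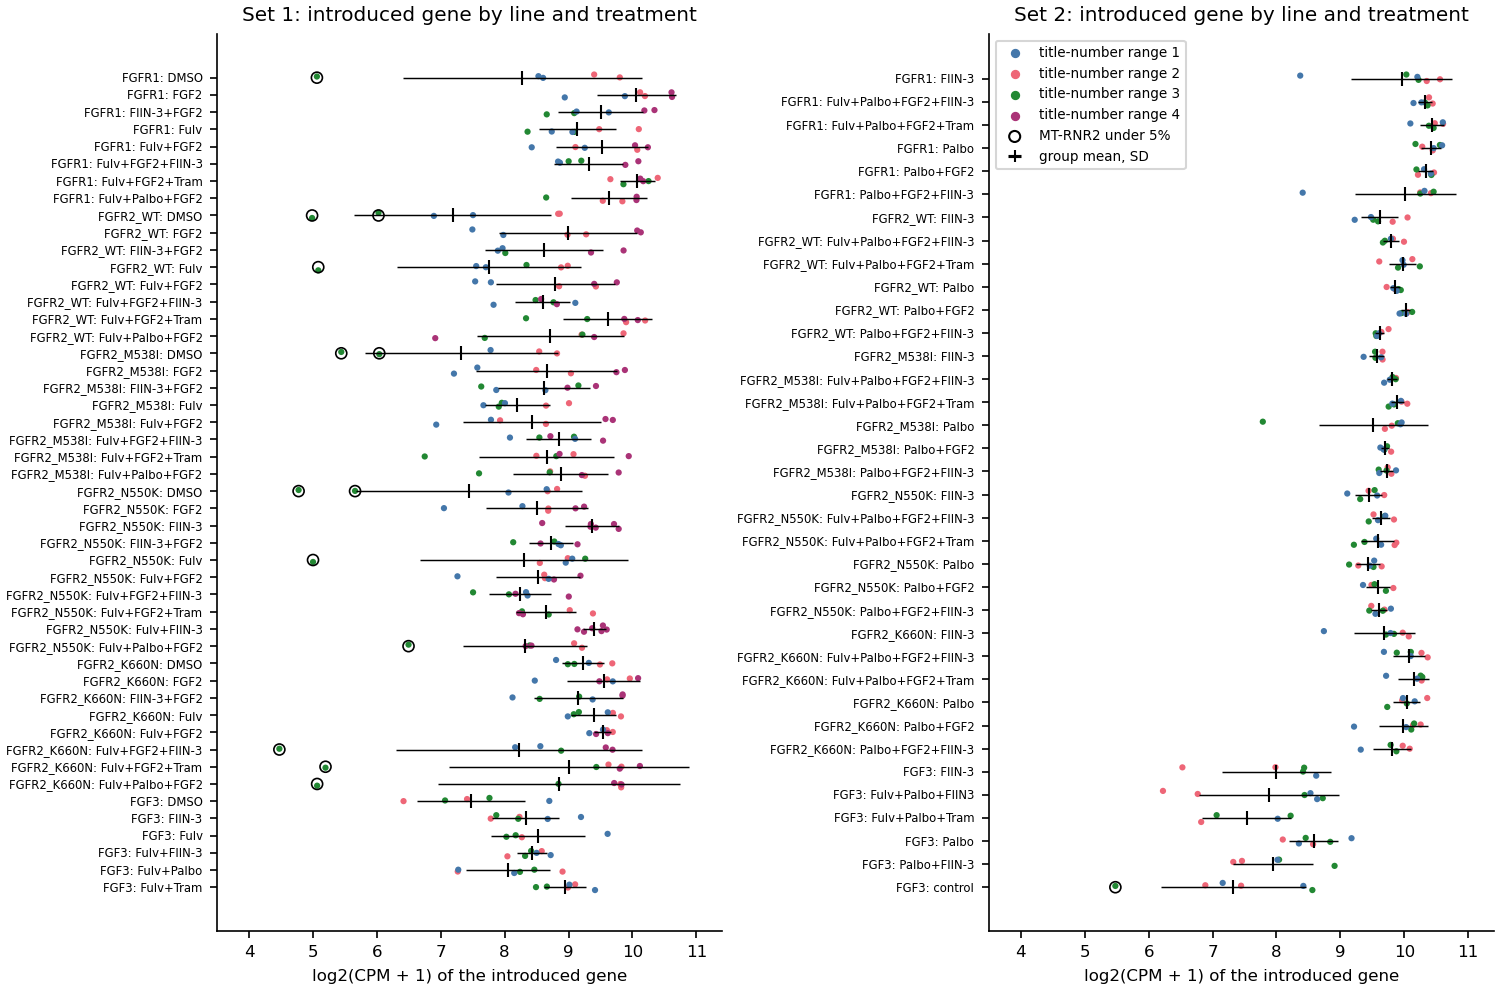
Level of the introduced gene in its own line by treatment, as log2(CPM + 1), with every library as a point coloured by range, open circles around stand-apart libraries, and the group mean with its SD. DMSO is the lowest group of the FGFR1, FGFR2_WT, FGFR2_M538I and FGFR2_N550K lines in set 1, in FGFR2_M538I and FGFR2_N550K only with the stand-apart libraries, which lie lowest in their groups.

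Within the carrier lines FGF2 against DMSO was the only treatment comparison in which an introduced receptor passed the test. In the FGFR1 line FGFR1 was higher in FGF2 than in DMSO by 1.18 ± 0.26 (edgeR, adjusted p = 0.000104), where 32.6% of genes passed. Leaving out the stand-apart library gave 0.90 (adjusted p = 0.00284), the ranges holding both arms gave 0.85 and 0.56, and edgeR on these libraries alone gave 1.15 short of the threshold (0.0769), while limma on log2 TPM gave 1.98 (3.31e-06). In the FGFR2 lines together FGFR2 was higher by 0.83 ± 0.19 (0.000122), where 46.4% of genes passed, and 6 of its DMSO libraries stood apart. Without them it was 0.49 (0.0253), within the ranges holding both arms it was -0.13 and 0.12, and a limma fit with a range term and without those libraries gave 0.19 (0.326), while limma on log2 TPM gave 1.27 and passed. On the log2(CPM + 1) scale the difference was 1.80 in FGFR2_WT, 1.33 in FGFR2_M538I, 1.07 in FGFR2_N550K and 0.32 in FGFR2_K660N, the line without a stand-apart DMSO library. In the control lines FGFR1 differed by 0.47 (0.102) and FGFR2 by -0.04 (0.965) at 7.72% of genes. The response of the carriers minus that of the control lines did not pass, at 0.71 for FGFR1 (0.159; 5.18% of genes) and 0.88 for FGFR2 (0.11; 5.93%). With a term for the range of title numbers the FGFR2 response was 0.90 and passed (0.027), in a fit that kept the stand-apart libraries. It passed in only 1 of 10 alternatives, which ran from 0.50 to 1.17.

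In the fit without a range term no inhibitor gave a called change of an introduced receptor. Fulv against DMSO gave 0.36 for FGFR1 in the FGFR1 line (edgeR, adjusted p = 0.608; 0.978% of genes passed) and 0.38 for FGFR2 in the FGFR2 lines (0.168; 16.9%), with 2.40% of genes passing in the control lines. With the range term the FGFR2 value was 0.46 and passed (0.0219), in a fit that kept the stand-apart libraries. It passed in only 1 of 10 alternatives, which ran from 0.14 to 0.66. Within ranges FGFR1 was at 0.33 and 0.19 and FGFR2 at 0.34, 0.11 and 0.08. FIIN-3 added to FGF2 gave -0.40 for FGFR1 (0.25; 19.1%) and -0.16 for FGFR2 (0.53; 46.8%), with 15.4% passing in the control lines. FIIN-3 added to Fulv+FGF2 gave -0.19 for FGFR1 (0.651; 19.9%) and -0.25 for FGFR2 (0.274; 49.9%). Within ranges FGFR1 was at -0.03 and -0.35 for FIIN-3 on FGF2 and at 0.01 and -0.15 on Fulv+FGF2. The FGFR2 values had opposite signs in the first and the fourth range, 0.48 and -0.34 on FGF2 and 0.34 and -0.42 on Fulv+FGF2, and with the range term they were 0.11 (0.633) and 0.024 (0.94). Tram added to Fulv+FGF2 gave 0.47 for FGFR1 (0.381; 3.77%) and 0.24 for FGFR2 (0.398; 24.3%), and Palbo added to Fulv+FGF2 gave 0.20 (0.761; 7.77%) and 0.14 (0.64; 31.1%), with 15.7% passing in the control lines. Within ranges Tram gave 0.43 and 0.0046 for FGFR1 and 0.52 and -0.03 for FGFR2, and Palbo gave 0.10 and -0.08 for FGFR1 and 0.45 and -0.48 for FGFR2. In set 2 FGF2 added to Palbo gave -0.10 for FGFR1 (0.806; 16.9%) and 0.12 for FGFR2 (0.289; 33.7%), and FIIN-3 added to Palbo+FGF2 gave -0.14 (0.701; 19.5%) and -0.10 (0.353; 47.7%). Within the 3 ranges FGF2 on Palbo gave -0.16, -0.02 and -0.06 for FGFR1 and -0.19, 0.13 and 0.38 for FGFR2, and FIIN-3 gave -0.999, -0.0069 and 0.05 for FGFR1 and -0.07, -0.15 and -0.22 for FGFR2. By line this last comparison gave -0.41 in FGFR2_WT on the log2(CPM + 1) scale (9.55 to 9.75 against 9.93 to 10.12, n = 6 each). FGFR2_K660N was at -0.17, and FGFR2_M538I and FGFR2_N550K were at 0.02 each. How many other genes separated as fully in FGFR2_WT was not counted. The difference between these lines was not tested. In the FGFR1 line the response minus that of the control lines had 1.62% of genes passing for FIIN-3 on Fulv+FGF2, 6.55% (higher only) for FGF2 on Palbo and 4.78% for FIIN-3 on Palbo+FGF2, and FGFR1 was not among them.

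FGF3 passed in 1 of 6 comparisons within its line by edgeR. Palbo against control in set 2 gave 1.00 ± 0.33 (edgeR, adjusted p = 0.0287; 13.3% of genes passed), with the 6 Palbo libraries between 8.10 and 9.17 and the 6 control libraries between 5.48 and 8.56. Without the stand-apart control library it was 0.82 and no longer passed (0.0757), and within ranges it was 0.97, 1.17 and 0.09. Fulv against DMSO gave 1.03 (0.71; 0.0116% of genes) and 0.91, 1.35 and 0.68 within ranges, and it passed with limma and a range term (1.09, 0.00518) and with limma on log2 TPM (1.09, 0.00883). FIIN-3 against DMSO gave 0.89 (0.208; 8.06%) and 0.24, 1.09 and 0.63 within ranges, and it passed with limma and a range term (1.03, 0.000599). Fulv+Tram against Fulv gave 0.40 (0.783; 3.77%; -0.40, 0.78 and 0.48 within ranges) and Fulv+Palbo against Fulv -0.43 (0.757; 4.67%; -1.90, -0.18 and 0.25). FIIN-3 against control in set 2 gave 0.57 (0.303; 13.8%; 0.83, 0.09 and -0.14 within ranges).

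The cell's own FGFR1 and FGFR2 were read at low levels. In GFP, FGFR1 means in set 1 rose from 2.56 ± 0.48 in Fulv+FGF2+Tram through 2.83 ± 0.59 in DMSO, 2.96 ± 0.29 in FIIN-3+FGF2, 3.16 ± 0.29 in Fulv, 3.34 ± 0.26 in Fulv+FGF2+FIIN-3 (n = 5), 3.44 ± 0.46 in Fulv+Palbo+FGF2 and 3.56 ± 0.49 in Fulv+FGF2 to 3.59 ± 0.64 in FGF2, with as few as 14 reads in a library. GFP FGFR2 means ran from 3.54 ± 0.53 in FIIN-3+FGF2 through 3.71 ± 0.49 in FGF2, 3.85 ± 0.53 in DMSO, 3.87 ± 0.69 in Fulv+FGF2, 3.89 ± 0.86 in Fulv, 4.12 ± 0.49 in Fulv+FGF2+Tram and 4.14 ± 0.28 in Fulv+Palbo+FGF2 to 4.44 ± 0.61 in Fulv+FGF2+FIIN-3. The Fulv+FGF2+Tram group was the lowest for FGFR1 and among the 3 highest for FGFR2. In set 2 GFP FGFR1 ran from 2.44 ± 0.49 in Fulv+Palbo+FGF2+Tram to 3.59 ± 0.35 in Fulv+Palbo+FGF2+FIIN-3 and FGFR2 from 4.04 ± 0.23 in Palbo+FGF2 to 4.53 ± 0.26 in Fulv+Palbo+FGF2+FIIN-3. The parental line spanned 2.86 ± 0.34 to 3.51 ± 0.26 for FGFR1 and 3.28 ± 0.62 to 4.22 ± 0.32 for FGFR2 in set 1, and 2.502 ± 0.63 to 3.78 ± 0.28 and 3.72 ± 0.36 to 4.49 ± 0.32 in set 2, with the same lowest groups for FGFR1, Fulv+FGF2+Tram and Fulv+Palbo+FGF2+Tram. Parental and GFP did not differ past the threshold, with FGFR1 at 0.13 (0.421) and 0.25 (0.206) and FGFR2 at -0.19 (0.458) and -0.06 (0.691), where 10.7% and 18.2% of genes passed.

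**Figure D4:**
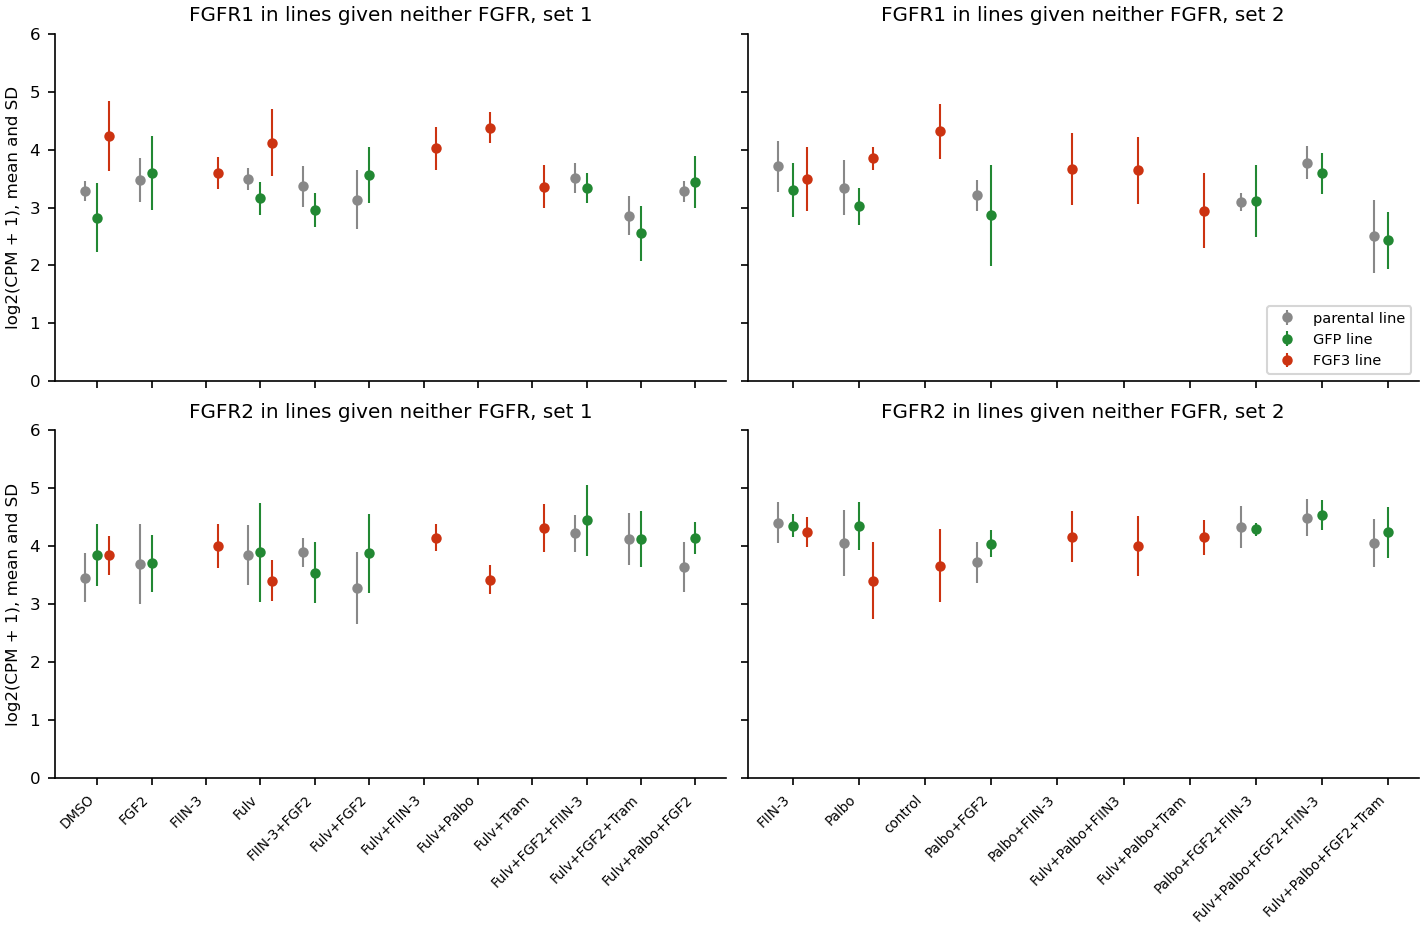
Level of FGFR1 and FGFR2 in the parental, GFP and FGF3 lines, as log2(CPM + 1), by treatment and set, with points at the group mean and bars of 1 SD. Over all treatments of set 1 FGFR1 averaged 3.17 ± 0.55 in GFP and 3.93 ± 0.53 in the FGF3 line, and FGFR2 averaged 3.94 ± 0.59 and 3.88 ± 0.46.

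The receptor that was not introduced differed from GFP in some of the carriers, in comparisons where many other genes also passed. Of all genes, 33.4% and 16.4% passed in sets 1 and 2 in FGFR2_WT against GFP, and 38.5% and 34.4% in FGFR2_N550K. In the FGF3 line 35.1% and 15.7% passed, and in the FGFR1 line 19.9% passed in set 2. The parental line, which has no vector, had 10.7% and 18.2%. Whether the receptors differed more often than other genes was not tested. FGFR1 was higher than in GFP in FGFR2_WT, by 0.38 ± 0.09 in set 1 (edgeR, adjusted p = 0.000529) and 0.45 ± 0.13 in set 2 (0.0076). It did not pass in FGFR2_M538I (0.19 and 0.12) or FGFR2_K660N (-0.07 and -0.09), and in FGFR2_N550K it was lower in set 2 (-0.46 ± 0.14, 0.00649) and at -0.06 in set 1 (0.681). Against FGFR2_WT it was lower in FGFR2_N550K (-0.44, 9.73e-05, and -0.91, 8.37e-09) and in FGFR2_K660N (-0.45, 5.7e-05, and -0.53, 0.000973), and at -0.19 (0.468) and -0.33 (0.264) in FGFR2_M538I. Among the lines without an FGFR1 vector the FGF3 line had the largest FGFR1 difference from GFP in set 1, 1.02 ± 0.21 (2.37e-05), and 0.52 in set 2 (0.0955, but 0.00759 with no filter on low counts and 0.046 and 0.0328 with edgeR and DESeq2 on those libraries alone). FGFR2 was lower than in GFP in the FGF3 line in set 2 (-0.58 ± 0.16, 0.00346; -0.66 ± 0.34 and 0.125 in set 1) and in the FGFR1 line in set 2 (-0.32 ± 0.09, 0.00532; -0.11 and 0.655 in set 1). The set 1 value in the FGF3 line ran from -0.71 to -0.11 over 10 alternatives and passed in 3. These were edgeR and DESeq2 on those libraries alone (0.0426 and 0.0418) and limma with a range term and without stand-apart libraries (0.0116). In the FGF3 line of set 1 the median of all genes against GFP was itself at -0.165 on the log2 scale. It was at -0.273 without low-depth libraries. By treatment FGFR1 in the FGF3 line was lowest in Fulv+Tram (3.36 ± 0.37, n = 6) and highest in Fulv+Palbo (4.38 ± 0.27, n = 6) in set 1, with FIIN-3 at 3.601 ± 0.28, Fulv+FIIN-3 at 4.02 ± 0.37, Fulv at 4.12 ± 0.57 and DMSO at 4.23 ± 0.61 between them, and in set 2 it was lowest in Fulv+Palbo+Tram (2.95 ± 0.65, n = 4) and highest in control (4.31 ± 0.48, n = 6). FGFR2 in that line ran from 3.40 ± 0.35 in Fulv to 4.31 ± 0.42 in Fulv+Tram in set 1 and from 3.40 ± 0.67 in Palbo to 4.24 ± 0.26 in FIIN-3 in set 2. Neighbouring groups overlapped in each of these orders.

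The cell's own FGFR2 was higher with FIIN-3 in several comparisons in lines without an FGFR2 vector. FIIN-3 added to Fulv+FGF2 gave 0.85 ± 0.29 in the control lines (edgeR, adjusted p = 0.0323; 13.6% of genes passed; 1.08 and 0.72 within ranges) and 1.08 ± 0.41 in the FGFR1 line (0.0482; 0.54 and 1.27 within ranges). FIIN-3 added to FGF2 alone did not pass, at 0.10 in the control lines (0.875) and 0.66 in the FGFR1 line (0.263). FIIN-3 added to Palbo+FGF2 gave 0.68 ± 0.22 in the FGFR1 line (0.0185) and 0.51 in the control lines, where it did not pass (0.0722; 4.01% of genes). FIIN-3 against control in the FGF3 line gave 0.79 ± 0.25 (0.017), which did not pass when control replicate 2 (0.0656), control replicate 4 (0.0611) or FIIN-3 replicate 4 (0.0706) was left out, nor with edgeR or DESeq2 on those libraries alone (0.156 and 0.109). In set 1 FIIN-3 against DMSO in that line gave 0.41 and did not pass (0.712). Of all genes, 19.9% passed for FIIN-3 on Fulv+FGF2 and 19.5% on Palbo+FGF2 in the FGFR1 line. In the FGF3 line 13.8% passed in set 2. Tram gave rises of like size that did not pass. Added to Fulv+FGF2 it gave 0.58 in the control lines (edgeR, adjusted p = 0.187) and 1.03 in the FGFR1 line (0.182). Fulv+Tram against Fulv in the FGF3 line gave 1.08 (0.269). Each of these Tram results passed in 3 of 9 alternatives. FGF2 added to Palbo moved the cell's own FGFR2 the other way in the control lines, -0.50 ± 0.17 (0.0347; 10.8% of genes). Without the stand-apart library the value was as large, at -0.50, and did not pass (0.114).

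Against these own-locus shifts the FGFR2 lines, whose FGFR2 reads are mostly of the introduced copy, differed from the control lines in 3 comparisons. The response of FGFR2 in the FGFR2 lines minus that in the control lines was -1.11 ± 0.35 for FIIN-3 on Fulv+FGF2 (edgeR, adjusted p = 0.0362; 5.62% of genes passed), 0.62 ± 0.19 for FGF2 on Palbo (0.0135; 14.3%) and -0.61 ± 0.19 for FIIN-3 on Palbo+FGF2 (0.0212; 5.89%, lower only). For Tram on Fulv+FGF2 it was -0.34 (0.693; 6.35%). FGFR1 differed for Tram on Fulv+FGF2: it was lower in the control lines by 0.71 ± 0.19 (-0.71, 0.00357; 13.5% of genes; -1.004 and -0.39 within ranges), and the FGFR1 line minus control response was 1.18 ± 0.31 (0.0207; 1.21%). By line that drop was -1.004 in GFP and -0.28 in the parental line on the log2(CPM + 1) scale. In the FGFR2 lines own-locus FGFR1 gave -0.27 for Tram (0.133) and in the FGF3 line -0.76 for Fulv+Tram against Fulv (0.155).

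The other genes of the pathway were read from lists of receptors, ligands, co-receptors, adaptors, and feedback genes with ETS factors. Of 9 feedback and ETS genes, all tested in both sets, those higher than in GFP numbered 4 in set 1 and 2 in set 2 in the FGFR1 line, 5 and 3 in FGFR2_WT, 7 and 4 in FGFR2_M538I, 8 and 7 in FGFR2_N550K, 7 and 4 in FGFR2_K660N, and 8 and 7 in the FGF3 line. Of all genes tested, 9.29% and 10.4% were higher in the FGFR1 line, 16.2% and 8.93% in FGFR2_WT, 17.2% and 13.1% in FGFR2_M538I, 20.4% and 17.5% in FGFR2_N550K, 15.7% and 12.9% in FGFR2_K660N, and 13.3% and 7.97% in the FGF3 line. None of the 9 was lower in a carrier. The parental line had none higher and 1 lower in each set, DUSP4 and SPRED1. The median difference from GFP over the 9 genes on the log2(CPM + 1) scale was 0.20 and 0.14 in the FGFR1 line, 0.39 and 0.35 in FGFR2_WT, 0.82 and 0.38 in FGFR2_M538I, 1.55 and 0.96 in FGFR2_N550K, 0.80 and 0.46 in FGFR2_K660N, and 2.32 and 1.40 in the FGF3 line, while over all genes it lay between -0.07 and 0.06. The order of the lines in this list was not the order of the introduced RNA: FGFR2_N550K had the least FGFR2 of the 4 FGFR2 lines in set 2 and the highest median of the list. SPRY4 and ETV5 had no read in some GFP or carrier groups, which leaves their fitted changes there undefined, so their missing calls say little. FGF3 was compared with GFP over treatments without FGF2, the other lines over treatments that mostly held FGF2.

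DUSP6, an ERK phosphatase and a readout of ERK activity, shows the levels behind these counts. In DMSO in set 1 it stood at 1.60 ± 0.59 in the parental line, 1.72 ± 0.59 in GFP, 1.82 ± 1.01 in the FGFR1 line, 2.42 ± 0.77 in FGFR2_WT, 3.64 ± 0.81 in FGFR2_M538I, 4.83 ± 0.22 in FGFR2_K660N, 5.23 ± 1.11 in FGFR2_N550K and 5.30 ± 0.39 in the FGF3 line. The parental, FGFR2_K660N and FGF3 lines had no stand-apart library in DMSO. The DMSO means of the other lines include such libraries, so the order of the lines is not like for like. With FGF2 the FGFR1 line and FGFR2_WT reached 5.99 and 6.06, FGFR2_K660N 6.35, FGFR2_M538I 6.44 and FGFR2_N550K 7.13, against 3.78 in GFP and 3.70 in the parental line. With FIIN-3+FGF2 FGFR2_N550K stayed at 5.603 ± 0.18 while the other lines that received it lay between 1.32 and 2.33. DUSP4 in the same treatment was at 6.37 in FGFR2_N550K and between 3.87 and 4.24 in the others, and SPRY4 at 2.00 against 0.12 or less. Averaged over treatments DUSP6 exceeded GFP by 0.99 and 0.43 in the FGFR1 line, 1.17 and 0.65 in FGFR2_WT, 1.56 and 0.83 in FGFR2_M538I, 3.19 and 2.83 in FGFR2_N550K, 1.70 and 0.89 in FGFR2_K660N, and 3.74 and 2.23 in the FGF3 line, and each of these passed.

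**Figure D5:**
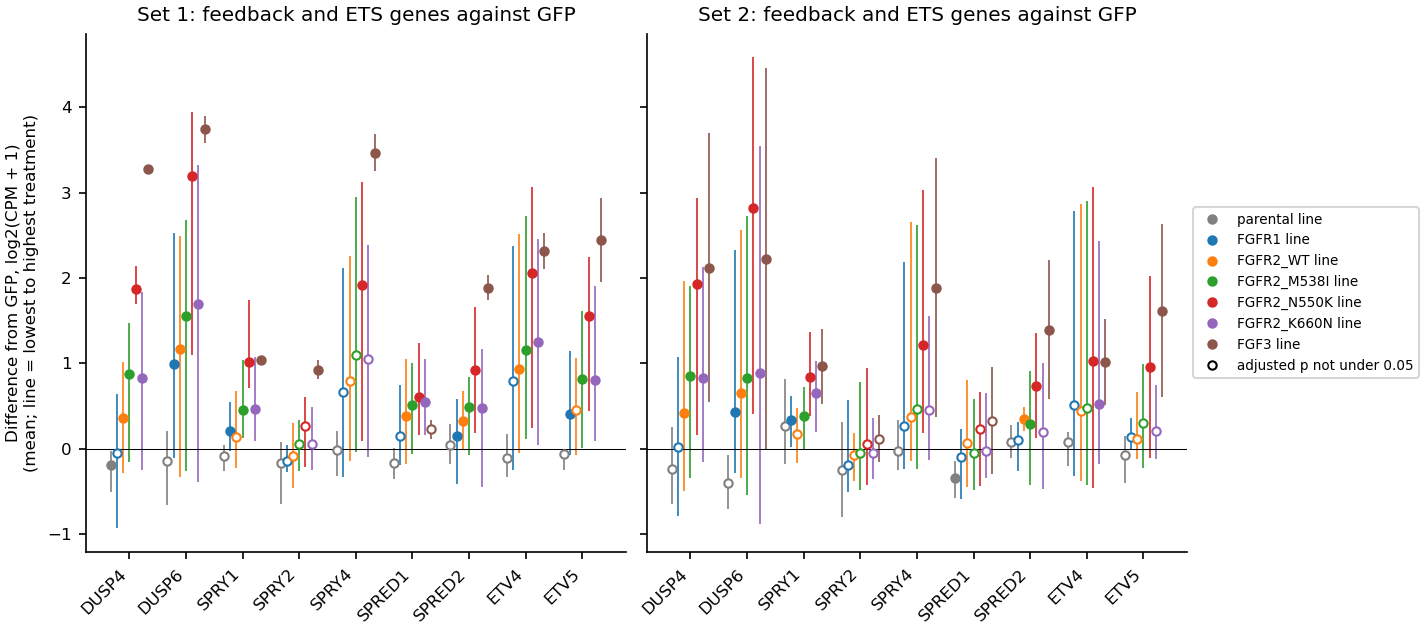
Difference from GFP of the 9 feedback and ETS genes on the log2(CPM + 1) scale, by line and set, as the mean over treatments with a line from the lowest to the highest treatment, filled where edgeR's adjusted p was under 0.05. DUSP6 differs by 3.19 in FGFR2_N550K and by 0.99 in the FGFR1 line in set 1.

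The same 9 genes were also compared between treatments. FGF2 against DMSO raised 6 and lowered 1 (SPRY1) in the control lines, raised 7 in the FGFR1 line and 8 in the FGFR2 lines, where 7.72%, 32.6% and 46.4% of all genes passed in either direction. FIIN-3 added to FGF2 lowered 7, 7 and 9 in the control, FGFR1 and FGFR2 lines and raised SPRY1 in the control lines, against 15.4%, 19.1% and 46.8% of all genes. FIIN-3 added to Fulv+FGF2 lowered 6, 7 and 8 (13.6%, 19.9% and 49.9% of all genes), and Tram added to Fulv+FGF2 lowered 8, 7 and 9 (13.5%, 3.77% and 24.3%). Palbo and Fulv moved few of them: Palbo on Fulv+FGF2 raised 2, 1 and 1 and lowered 1 in the FGFR2 lines (15.7%, 7.77% and 31.1% of all genes), and Fulv against DMSO raised 2 in the FGFR2 lines (16.9%) and none elsewhere. In set 2 FGF2 on Palbo raised 5, 6 and 7 (10.8%, 16.9% and 33.7%), and FIIN-3 on Palbo+FGF2 lowered 5, 6 and 8 (4.01%, 19.5% and 47.7%). In the FGF3 line FIIN-3 lowered 7 in each set (8.06% and 13.8% of all genes) and Tram on Fulv lowered 7 (3.77%), Palbo against control raised 1 (DUSP6; 13.3%), and Fulv or Palbo on Fulv moved none.

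Of the 3 other receptors FGFR4 differed most, in the FGF3 line. FGFR4 stood at 6.93 in the FGF3 line and 4.66 in GFP in set 1 (edgeR, adjusted p = 3.98e-13), and at 6.54 and 4.85 in set 2 (2.11e-18). It was also higher than GFP in the FGFR1 line (0.31 and 0.50), in FGFR2_K660N (0.42 and 0.69), in the other 3 FGFR2 lines in set 2 (0.27 to 0.59) and in the parental line (0.44 and 0.34), which has no vector. The decoy receptor FGFRL1 passed only in FGFR2_M538I in set 1 (0.30), and FGFR3 in FGFR2_WT (0.27) and FGFR2_M538I (0.28) in set 1. Over both sets 7.97% to 20.4% of all genes were higher than in GFP in the carriers, and 4.69% and 10% in the parental line.

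Of 12 ligands listed, 2 in set 1 and 1 in set 2 were read deeply enough to test. FGF12, a member of the group that stays inside the cell, was lower than in GFP in every carrier line in set 1. The values ran from -0.40 in the FGFR1 line to -0.88 in FGFR2_N550K and -1.11 in the FGF3 line. FGF12 was also lower in the 4 FGFR2 lines in set 2, and higher in the parental line in set 1 (0.30). The other ligand tested in set 1 was higher than in GFP in FGFR2_M538I, FGFR2_N550K and FGFR2_K660N. That ligand did not pass in the FGFR1, FGFR2_WT, FGF3 or parental lines. Of 8 co-receptors, 7 and 6 were tested. The heparan sulfate proteoglycan SDC1 was higher than GFP in all 6 carrier lines in both sets, by 1.78 and 1.19 in the FGF3 line and 1.22 and 1.28 in FGFR2_N550K, and lower in the parental line (-0.36 and -0.41). FLRT3, a membrane partner of FGF receptors, was higher in all 6 carriers in set 1 and in 5 in set 2, and GPC1 only in the FGF3 line (1.29 and 0.56). In FGFR2_N550K in set 1, 3 of the 7 co-receptors were higher and 1 was lower. Against GFP in set 1, 9.29% to 20.4% of all genes were higher and 9.75% to 21.8% lower across the carrier lines. In set 2 these shares were 7.97% to 17.5% and 7.48% to 16.9%. In the parental line 4.69% and 10% of all genes were higher and 6.03% and 8.16% lower.

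Of 9 adaptors, 9 and 8 were tested. In the FGF3 line SHC1 (1.13) and GRB2 (0.53) were among 3 that were higher in set 1, while SOS1 (-1.06), FRS2 (-0.89) and PTPN11 (-0.50) were lower, and FRS2 (-0.90) and PTPN11 (-0.59) were lower in set 2. Of all genes in that set 1 comparison 13.3% were higher and 21.8% lower, and their median was -0.165. FRS2 is the docking protein that FGF receptors phosphorylate, and PTPN11 is the phosphatase SHP2 that binds it. In set 2 PTPN11 was also lower in FGFR2_M538I, FGFR2_N550K, FGFR2_K660N and the parental line, at -0.24, -0.37, -0.53 and -0.26. Of all genes, 11.8%, 16.9%, 12.9% and 8.16% were lower in these comparisons.

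Genes beside the 3 loci were also compared with GFP. The lists are short, so their counts cannot show whether neighbours moved with the introduced gene. None of the 5 tested neighbours of FGFR1 passed in the FGFR1 line in either set. Of 4 tested neighbours of FGFR2, changes of 0.30 or less passed in single sets: NSMCE4A (-0.22, adjusted p = 0.0443) and TACC2 (0.21, 0.0236) in FGFR2_K660N in set 1, and WDR11 (-0.30, 0.00782) in FGFR2_M538I and TACC2 (0.20, 0.036) in FGFR2_N550K in set 2. In the FGFR2 line comparisons 31.5% to 38.5% of all genes passed in set 1 and 16.4% to 34.4% in set 2. Of 5 neighbours of FGF3, 3 were tested in the FGF3 line, where 35.1% and 15.7% of all genes passed. The chloride channel ANO1 was higher by 2.78 (2.42e-15) in set 1 and 1.66 (1.55e-08) in set 2, and CCND1, which encodes cyclin D1, by 0.73 (5.61e-06) and 0.32 (0.0377), while ORAOV1 was at 0.15 (0.366) and 0.12 (0.596).

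Genes whose group means followed the members most closely are given as a description over the 64 groups of set 1 and 48 of set 2, which share libraries and depth. For FGF3 the highest Pearson correlations included those with CD151 (0.84) and MYL6B (0.83) in set 1, and were with PAMR1 (0.90), MATN2 (0.84) and CAPN13 (0.82) in set 2. For FGFR2 they were with WWP1 (0.79), HLA-B (0.77) and DDIT3 (0.77) in set 1, and included HLA-B and CD74 (0.73 each) in set 2. For FGFR1 none was above 0.37 in set 1 (TYRP1, SOD3 at 0.34, TPM1 at 0.31) or 0.45 in set 2 (TPT1, then A1BG and EFHD1 at 0.42). HLA-B was the only gene named for the same member in both sets.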

How the data were processed

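The authors deposited whole-number counts per gene for 647 SMART-Seq2 libraries and a table of log2 TPM values. The submitters' processing notes name STAR and hg19 without versions. The counter and annotation are not given in the sources used here. All 647 count columns were matched to samples by title, as were 133 deposited log2 TPM columns, all of set 1. The other 514 TPM columns were not used. Counts were fitted with edgeR 4.0.16 (quasi-likelihood, TMM scaling, R 4.3.3), 1 fit per set, over genes passing filterByExpr at a minimum count of 10 (17178 genes in set 1, 13757 in set 2). Lines were compared as means over shared treatments, p-values were Benjamini-Hochberg adjusted over all tested genes, and "passed" means an adjusted p under 0.05. Alternatives were DESeq2 size factors, no filter, a term for the range of 96 title numbers, a block of neighbouring title numbers, and leaving out stand-apart or low-depth libraries. Others were edgeR and DESeq2 1.42.0 on the compared libraries alone, limma 3.58.1 on log2 TPM, and each replicate left out in turn. Limma with a range term and without the stand-apart libraries (log2 CPM, prior count 2) was added after seeing the data. The range and block fits used a Wald form of the quasi-likelihood F. The edgeR step was tested on simulated data. Genes named are the members, those of the lists, the nearest neighbours, and the 3 most correlated genes for each member, of which 2 are not reported here. Members and lists were chosen with earlier results of these data known.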

Additional observations from a re-analysis of the deposited data

Results flagged for a closer look

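Over 140 pairs of a member gene and a group of 4 to 6 libraries, 18 held a library far from the others by Dixon's criterion. Chance gives about 5%. Carrier groups were screened for the introduced gene only, and parental and GFP groups for FGFR1 and FGFR2. The introduced gene thus made up most of the pairs. Of the 18, 17 were of the introduced gene, and 17 of the 18 were low. The values are log2(CPM + 1), with the nearest library of the group in parentheses. Of these libraries 7 stood apart by MT-RNR2: FGFR1 DMSO replicate 3 at 5.06 (8.53), FGFR2_WT Fulv replicate 3 at 5.08 (7.56), FGFR2_N550K Fulv replicate 3 at 5.001 (8.55) and Fulv+Palbo+FGF2 replicate 4 at 6.496 (8.33), and FGFR2_K660N Fulv+FGF2+FIIN-3 replicate 1 at 4.48 (8.17), Fulv+FGF2+Tram replicate 3 at 5.20 (9.44) and Fulv+Palbo+FGF2 replicate 4 at 5.07 (8.84). The libraries of set 2 did not stand apart. They were FGFR1 replicate 5 in FIIN-3 at 8.37 (10.03) and in Palbo+FGF2+FIIN-3 at 8.41 (10.25), FGFR2_K660N replicate 5 in FIIN-3 at 8.74 (9.71), in Palbo+FGF2 at 9.21 (10.03) and in Fulv+Palbo+FGF2+Tram at 9.71 (10.20), FGFR2_M538I Palbo replicate 4 at 7.79 (9.70), and the cell's own FGFR1 in parental FIIN-3 replicate 2 at 2.87 (3.64). The rest were in set 1: FGFR2_K660N FGF2 replicate 6 at 8.47 (9.48), FGFR2_N550K FIIN-3 replicate 2 at 8.59 (9.34) and Fulv+FGF2 replicate 5 at 7.26 (8.62), and FGF3 in Fulv replicate 4, the high one, at 9.61 (8.27).

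Carrier and control lines responded differently, by a test of the difference itself, in 4 comparisons. FGFR2 in the FGFR2 lines minus the control lines gave -1.11 for FIIN-3 on Fulv+FGF2, 0.62 for FGF2 on Palbo and -0.61 for FIIN-3 on Palbo+FGF2, and FGFR1 in the FGFR1 line minus the control lines gave 1.18 for Tram on Fulv+FGF2. In the carriers these are mostly reads of the introduced copy and in the control lines of the cell's own gene.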

How the results depend on the processing

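Of the results tested, 39 passed. DESeq2 size factors kept every result on its side of the threshold with its direction, and so did the block of neighbouring title numbers, except FGF3 against GFP in both sets, which could not be fitted with the block or the range term, since some groups held no read. The title numbers paired the libraries weakly at most. Same-numbered libraries deviated together with a median r of 0.20 in set 1 and 0.08 in set 2, and as low as -0.90 and -0.66. For other-numbered libraries the median r was -0.08 and -0.04. The replicate block moved no count of called genes by over 1.5 times. Values below are log2 changes, with adjusted p in parentheses, and the cause was not tested.

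Without the stand-apart libraries FGF3 for Palbo against control fell to 0.82 (0.0757) and FGFR2 in the control lines for FGF2 on Palbo was -0.50 (0.114). For Fulv against DMSO the carrier minus control differences turned to -0.14 for FGFR1 and -0.10 for FGFR2, and FGFR2_K660N against FGFR2_WT in set 2 passed at 0.17 (0.0467). Without low-depth libraries these were 0.81 (0.0949) for FGF3 and 0.18 (0.0473) for FGFR2_K660N. With no filter 4 results came to pass: FGF3 for FIIN-3 against control at 0.61 (0.0308), FGFR2_K660N against FGFR2_WT in set 2 at 0.17 (0.0164), FGFR2 in the control lines for FIIN-3 on Palbo+FGF2 at 0.52 (0.00443) and FGFR1 in the FGF3 line against GFP in set 2 at 0.52 (0.00759). The fit with the range term kept the stand-apart libraries. In it FGFR2 for FGF2 against DMSO in carriers minus controls passed at 0.90 (0.027) and FGFR2 for Fulv in the FGFR2 lines at 0.46 (0.0219). FIIN-3 turned to 0.11 on FGF2 and 0.024 on Fulv+FGF2 in the FGFR2 lines.

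EdgeR on the compared libraries alone lost FGF3 for Palbo at 1.04 (0.122), FGFR1 for FGF2 in the FGFR1 line at 1.15 (0.0769) and FGFR2 for FGF2 on Palbo in the control lines at -0.52 (0.177), and DESeq2 lost the first and last at 1.02 (0.074) and -0.53 (0.0918). Both lost FGFR2 for FIIN-3 against control in the FGF3 line, at 0.75 (0.156) and 0.73 (0.109). These tools called, among others, FGFR2_K660N against FGFR2_WT in set 2 at 0.18 (0.00491 and 0.00507), FGFR2 in the control lines for Tram at 0.57 (0.0327) and 0.58 (0.016) and for FIIN-3 on Palbo+FGF2 at 0.51 (0.0215) and 0.52 (0.0111). Limma on log2 TPM called FGF3 for Fulv at 1.09 (0.00883) and FGFR1 for FGF2 in the FGFR1 line minus controls at 1.59 (0.0221), and turned FGFR2 for FGF2 in the control lines to 0.10.

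The added limma fit, which left out the stand-apart libraries, gave FGFR2 for FGF2 in the FGFR2 lines at 0.19 (0.326). The same fit gave FGFR2 for FGF2 on Palbo in the control lines at -0.49 (0.0812). It called FGF3 for Fulv at 1.09 (0.00518) and FIIN-3 against DMSO at 1.04 (0.000599), and FGFR2 in the control lines for Tram at 0.53 (0.0202) and FIIN-3 on Palbo+FGF2 at 0.50 (0.0434). It turned FGFR1 for Fulv in the FGFR1 line minus controls to -0.11, and FGFR2 in the FGFR2 lines to 0.056 for FIIN-3 on FGF2 and 0.020 on Fulv+FGF2.

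Leaving out 1 replicate at a time moved FGFR1 in the FGFR1 line minus controls from 0.43 to 1.04 for FGF2 (passing only without DMSO replicate 2, 0.0299), from -0.18 to 0.43 for Fulv and from -0.0060 to 0.30 for Palbo on Fulv+FGF2, FGF3 for Fulv+Palbo against Fulv from -0.65 to 0.12 (positive only without Fulv replicate 4), and FGFR2 for FIIN-3 in the FGF3 line from 0.68 to 0.91. Counts of called genes differed by over 1.5 times in 1 of 62 comparisons under DESeq2 size factors, 11 with no filter, 4 with the range term, 12 without stand-apart libraries, 6 without low-depth libraries, 17 with edgeR and 18 with DESeq2 on the compared libraries alone, 19 with the added limma fit and 6 of 10 with limma on TPM. Depth limits the cell's own genes most: FGFR1 had as few as 5 reads in a GFP library of set 2.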
